A study of Mus musculus with 20 samples.

Results

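Aquaporins are membrane channels that let water, and in some members glycerol, cross the cell membrane. The 8 members described here are Aqp1, Aqp3, Aqp4, Aqp5, Aqp7, Aqp8, Aqp9 and Aqp11, out of 22911 named genes on the array. They were chosen by their measured log2 levels, since the family read lower in anagen, the growth phase of the hair cycle, than in telogen, its resting phase. That contrast is therefore given as a description with no test. Each gene is represented by its brightest probe that passed the filter on dim signals, and 7 of the 8 members passed it. Aqp1 did not.

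The RNA came from hair follicle stem cells of male mice. The anagen groups had 1 array each and the telogen groups 3 arrays each, for Aged mice of 24 months, for HFD 3M and ND 3M mice of 5 months (high fat or normal diet for 3 months), and for HFD 4d and ND 4d mice of 2 months (the same diets for 4 days). Each of the 20 samples was on 1 single-colour array. The strain and the way the cells were isolated are not given in the sources used here. The labels number the telogen replicates as separate samples and do not say that they are separate animals. The p-values below therefore set a difference against the spread between these samples, which need not be the spread between animals.

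Water channels of this family differ in what they carry and where they sit. Aqp3, Aqp7 and Aqp9 are aquaglyceroporins, which pass glycerol as well as water. Aqp3 is the main such channel of basal keratinocytes, where it feeds glycerol to the epidermis. Aqp7 is best known from adipocytes, where it lets out the glycerol freed from stored fat, and Aqp9 from hepatocytes, which take glycerol up. Aqp1, Aqp4 and Aqp5 are water channels known from endothelium and red cells, from astrocytes, and from gland cells. Aqp8 also passes ammonia and hydrogen peroxide, and Aqp11 is a distant member that sits in the endoplasmic reticulum.

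Aqp3 and Aqp7 are neighbours in the genome. In the mouse build GRCm38.p6, Aqp7 spans chromosome 4 from 41033074 to 41048237 and Aqp3 from 41092724 to 41098183, with 44486 bases and 0 protein-coding genes between them. Both lie on the minus strand. Aqp2, Aqp5 and Aqp6 form another cluster on chromosome 15, with gaps of 6482 and 3638 bases. Aqp8 and Aqp11 both lie on chromosome 7, Aqp9 on chromosome 9, and Aqp1 on chromosome 6.

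The promoters of Aqp3 and Aqp7 are shown because these 2 neighbours had the largest anagen differences of the family. Each line gives the 250 bases before an annotated start, 5′ to 3′ on the gene's strand, from RefSeq on GRCm38.p6. The Aqp3 stretch is chr4:41098184-41098433, and the Aqp7 stretch, before the first of 2 listed starts, is chr4:41048137-41048386. The end of the Aqp7 stretch, its TGACCT match included, lies inside the gene as annotated. Capitals mark every match, on either strand, to 5 short motifs: the TATA box (TATAAA), the GC box (GGGCGG), the half-site of nuclear receptors (AGGTCA), the core bound by NFAT factors (TGGAAA) and the CCAAT box, which matched nowhere in these stretches. No motif overlaps another.
Aqp3: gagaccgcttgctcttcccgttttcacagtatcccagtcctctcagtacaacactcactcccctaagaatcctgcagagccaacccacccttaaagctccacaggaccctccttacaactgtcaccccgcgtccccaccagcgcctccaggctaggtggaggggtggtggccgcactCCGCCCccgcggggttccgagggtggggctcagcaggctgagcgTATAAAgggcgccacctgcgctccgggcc
Aqp7: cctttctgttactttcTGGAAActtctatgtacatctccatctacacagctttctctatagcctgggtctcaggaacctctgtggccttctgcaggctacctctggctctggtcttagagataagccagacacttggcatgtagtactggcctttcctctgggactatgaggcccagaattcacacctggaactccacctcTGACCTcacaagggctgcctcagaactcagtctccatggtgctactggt
The Aqp3 promoter held TATAAA 29 bases and GGGCGG, read on the other strand as CCGCCC, 73 bases before the start, and its GC content was 64.0%. The Aqp7 promoter held AGGTCA, read as TGACCT, 49 bases and TGGAAA 234 bases before the start, and its GC content was 50.8%. The window of the other listed Aqp7 start, not printed, held 2 matches of the nuclear receptor half-site and 0 of the NFAT core. No match of these 5 motifs was common to both stretches. Of the 32851 mouse promoters of this length, 12.4% held the TATA box, 32.7% the GC box, 14.0% the nuclear receptor half-site, 33.8% the CCAAT box and 18.6% the NFAT core. These are matches of letters, and binding of a factor was not measured.

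All values below are log2 levels, the processed spot intensity relative to the 75th percentile of the array, which lies at 0. Probes differ in their own brightness, so levels are compared between arrays for 1 gene and never between genes. An array had 59305 spots outside the controls. Between 60.7% and 71.11% of them were well above background on the anagen arrays, against 64.32% to 83.49% on the telogen arrays. The 10 bulge stem cell markers, Krt15, Cd34 and Lgr5 among them, were well above background on all 20 arrays. The layout touches the results below. Every anagen array lay in column 1 of a slide, so phase and column cannot be told apart. On the second principal component, HFD 3M telogen replicate 3 stood apart, at 130.1 against at most 38.6 elsewhere.

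Aqp7 had the widest anagen difference of the family. Its log2 level was -3.97 in Aged, -2.24 in HFD 3M, -4.12 in ND 3M, -3.75 in HFD 4d and -2.67 in ND 4d anagen cells. The telogen arrays read -1.95, 0.50 and -1.04 in Aged, -0.18, -0.65 and 1.24 in HFD 3M, -1.17, -1.09 and 1.74 in ND 3M, -1.82, -0.76 and -0.28 in HFD 4d, and 0.79, 0.60 and 0.23 in ND 4d cells. The highest anagen array, at -2.24, lay below the lowest telogen array, at -1.95, so the phases did not overlap. Taken within each condition, anagen minus the telogen mean was -3.14, -2.38, -3.95, -2.80 and -3.21 in the same order, a mean of -3.09 ± 0.58 (SD over 5 conditions), or 8.54-fold lower in anagen. Of the 18727 tested genes, 0.336% had a mean difference as low, and nothing is read from this rank because this contrast chose the members. This gap rests on 1 probe. The other Aqp7 probe was well above background on 0 of 5 anagen and 3 of 15 telogen arrays, and its correlation with the first over the telogen arrays was 0.17.

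Aqp3, the keratinocyte glycerol channel, was also lower in anagen on every array. In anagen it read 5.66 in Aged, 5.43 in HFD 3M, 4.91 in ND 3M, 5.00 in HFD 4d and 4.89 in ND 4d cells. In telogen it read 6.35, 6.0 and 6.68 in Aged, 6.54, 6.45 and 6.51 in HFD 3M, 6.72, 6.83 and 6.76 in ND 3M, 6.47, 6.63 and 6.74 in HFD 4d, and 6.35, 6.76 and 6.95 in ND 4d cells. All 5 anagen arrays lay below all 15 telogen arrays. The 2 arrays closest to each other across the phases were both from Aged mice, at 5.66 in anagen and 6.0 in telogen. The mean difference was -1.40 ± 0.51 (SD, 5 conditions), or 2.64-fold lower in anagen, and it was smallest in Aged mice, at -0.68, against -1.86 in ND 3M. Since anagen had 1 array per condition, differences between conditions have no replicate check.

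Aqp11, the endoplasmic reticulum member, was lower in anagen in every condition, but its arrays overlapped. The anagen arrays lay between -5.27 and -2.19 with a median of -3.58, against -4.04 to 0.15 and a median of -2.58 in telogen. Its differences were -1.45 in Aged, -0.21 in HFD 3M, -1.56 in ND 3M, -0.91 in HFD 4d and -1.65 in ND 4d mice, with a mean of -1.16 ± 0.60 (SD). The lowest of these arrays, ND 3M anagen, was not well above background. Its other probe differed by -0.86, and correlated with the first at 0.45 over the telogen arrays.

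The remaining members showed small anagen differences of mixed sign. The astrocyte water channel Aqp4 differed by -0.39 ± 0.68 (SD), with 4 of 5 conditions below 0, the gland channel Aqp5 by -0.22 ± 0.42, also 4 of 5, and Aqp9 by -0.25 ± 0.41, again 4 of 5. Aqp8 differed by -0.33 ± 0.87 with 3 of 5 below 0, and was well above background on 3 of the 5 anagen and 14 of the 15 telogen arrays. In these 4 genes the SD over conditions exceeded the mean, and HFD 3M was always above 0, by 0.68, 0.48, 0.41 and 0.64. Among the single anagen arrays, Aqp4 read -1.39 in HFD 3M and -2.66 in ND 3M, Aqp9 0.02 and -1.0, and Aqp5 -1.30 and -2.04. The ND 3M array was the lowest of the 5 for these genes, and also for Aqp7 and Aqp11, but not for Aqp3 and Aqp8. It was on another slide than the HFD 3M anagen array, and had the lowest share of spots well above background of all arrays, 60.7%. Diet, slide and array cannot be told apart here. The kidney collecting duct channel Aqp2, a family gene outside the chosen members, differed by -0.32 ± 0.52 and the related Aqp6 by -0.12 ± 0.71.

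**Figure D1:**
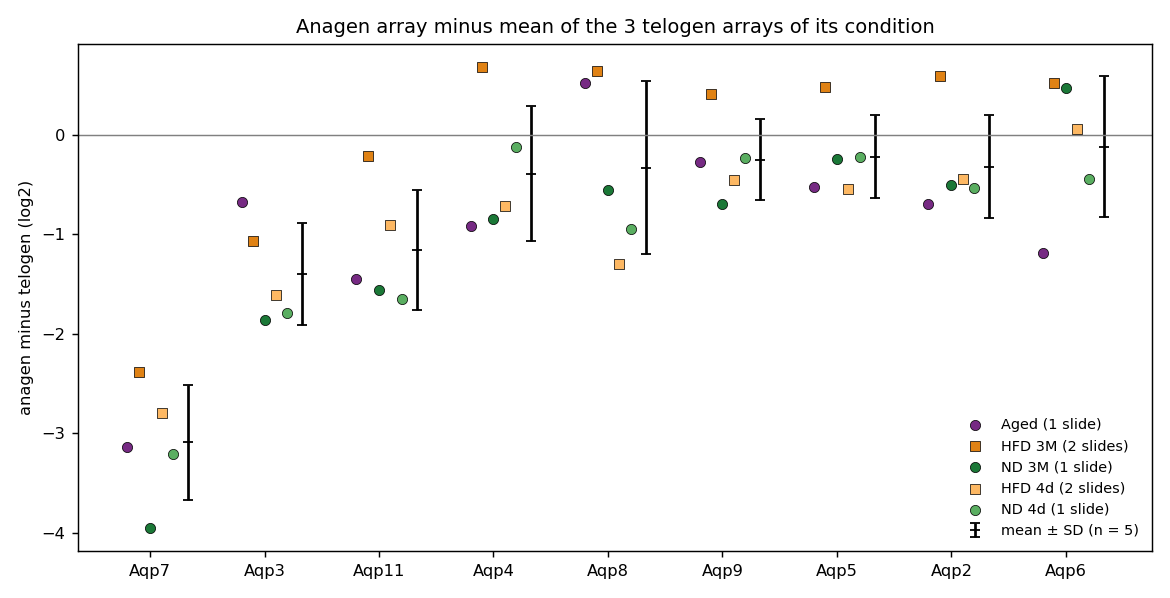
The vertical axis gives the log2 level of the anagen array minus the mean of the 3 telogen arrays of the same condition, for 7 members and for Aqp2 and Aqp6. Points are the 5 conditions, squares those whose phases were on different slides, and bars the mean ± SD over 5 conditions. Every point of Aqp7, Aqp3 and Aqp11 lies below 0, while each other gene has points on both sides.

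In all, 3 of the 7 tested members were lower in anagen in 5 of 5 conditions and 2 of 7 had no overlap between phases. Over all genes tested these shares were 9.67% and 0.716%, and nothing is read from the comparison because this contrast chose the members. The median member differed by -0.39, and the median gene by -0.16, with 60.4% of genes below 0. Scaling arrays by their median moved the median gene to 0.06. Relative to the median gene, the main values were -2.93 for Aqp7, -1.24 for Aqp3 and -1.0 for Aqp11, against -0.23 for Aqp4, -0.17 for Aqp8, -0.09 for Aqp9 and -0.06 for Aqp5. Fewer cells that express a gene and less of its RNA per cell cannot be told apart in these bulk samples.

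Slides divided the conditions further. In ND 3M, ND 4d and Aged mice both phases shared a slide, and there the mean difference was -3.43 for Aqp7, -1.44 for Aqp3 and -1.55 for Aqp11. For HFD 3M and HFD 4d, whose anagen and telogen arrays were on different slides, it was -2.59, -1.34 and -0.56 for the same genes. These are the 2 high fat diets, so sharing a slide and diet cannot be told apart. Aqp4, Aqp5 and Aqp9 were below 0 in 3 of 3 conditions within a slide, by a mean of -0.63, -0.33 and -0.40. Across slides they averaged -0.02, -0.04 and -0.03, but these means join values of opposite sign. HFD 3M was at 0.68, 0.48 and 0.41 for these genes, and HFD 4d at -0.72, -0.55 and -0.46.

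Other cell types of the skin carry these channels, and their markers moved as follows. The summed linear level of the 10 bulge markers was 314 to 442 in anagen (median 324) and 319 to 616 in telogen (median 506). Cd34, the bulge surface marker, averaged 3.16 in anagen and 5.35 in telogen on the log2 scale. Itga6 went the other way, at 3.32 and 3.01. Of the 10 bulge markers, 9 had a mean difference below 0 and 5 were lower in all 5 conditions. The shares of all genes were 60.4% and 9.67%. Bulge markers had a median difference of -0.31, against -0.16 for the median gene. The 6 markers of cycling cells summed to 22.5 to 49.1 in anagen and 0.743 to 15.8 in telogen, so these did not overlap. Fibroblast markers summed to 0.992 to 2.43 in anagen and 2.28 to 9.95 in telogen, with 3 or 4 of 6 well above background on an anagen array and 2 to 5 on a telogen array. Col1a2, the brightest of them, averaged 0.38 in anagen and 2.28 in telogen. Dcn went the other way, at -4.13 and -6.57, well above background on 3 of 5 anagen and 0 of 15 telogen arrays. Of the 4 fibroblast markers tested, 2 had a mean below 0, and 1 was lower and 1 higher in all 5 conditions. Over all genes 9.67% were lower and 9.25% higher in all 5. Red blood cell markers, which bear on Aqp1, summed to 0.516 to 1.45 in anagen and 0.56 to 6.56 in telogen, and all 6 that were tested had a mean below 0, with a median of -1.11. The part of these cells in the aquaporin differences was not tested.

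Adipocyte markers, which bear on Aqp7, summed to 1.89 to 3.95 in anagen and 1.45 to 8.14 in telogen, with 5 or 6 of 7 well above background on an anagen array and 4 to 7 on a telogen array. Sebocyte markers summed to 13.5 to 21.6 in anagen and 10.4 to 34.4 in telogen. Both ranges overlapped. Neither list had a member that was lower in anagen in all 5 conditions, against 9.67% of all genes, so lists this short say little by that count. Of the 7 adipocyte markers 5 had a mean difference below 0, with a median of -0.29. Of the 7 sebocyte markers 2 did, with a median of 0.35. Suprabasal keratinocyte markers summed to 174 to 264 in anagen and 112 to 283 in telogen, with 8 of 8 well above background on every array. Of these 8, 1 had a mean difference below 0, against 60.4% of all genes. Their median difference was 0.75, against -0.16 for the median gene. Sweat gland markers, which bear on Aqp5, summed to 2.38 to 4.59 in anagen and 3.73 to 8.0 in telogen, with 4 or 5 of 6 well above background on every array and the gland factor Foxa1 on 0 arrays. The part of these cells in the differences was not tested.

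**Figure D2:**
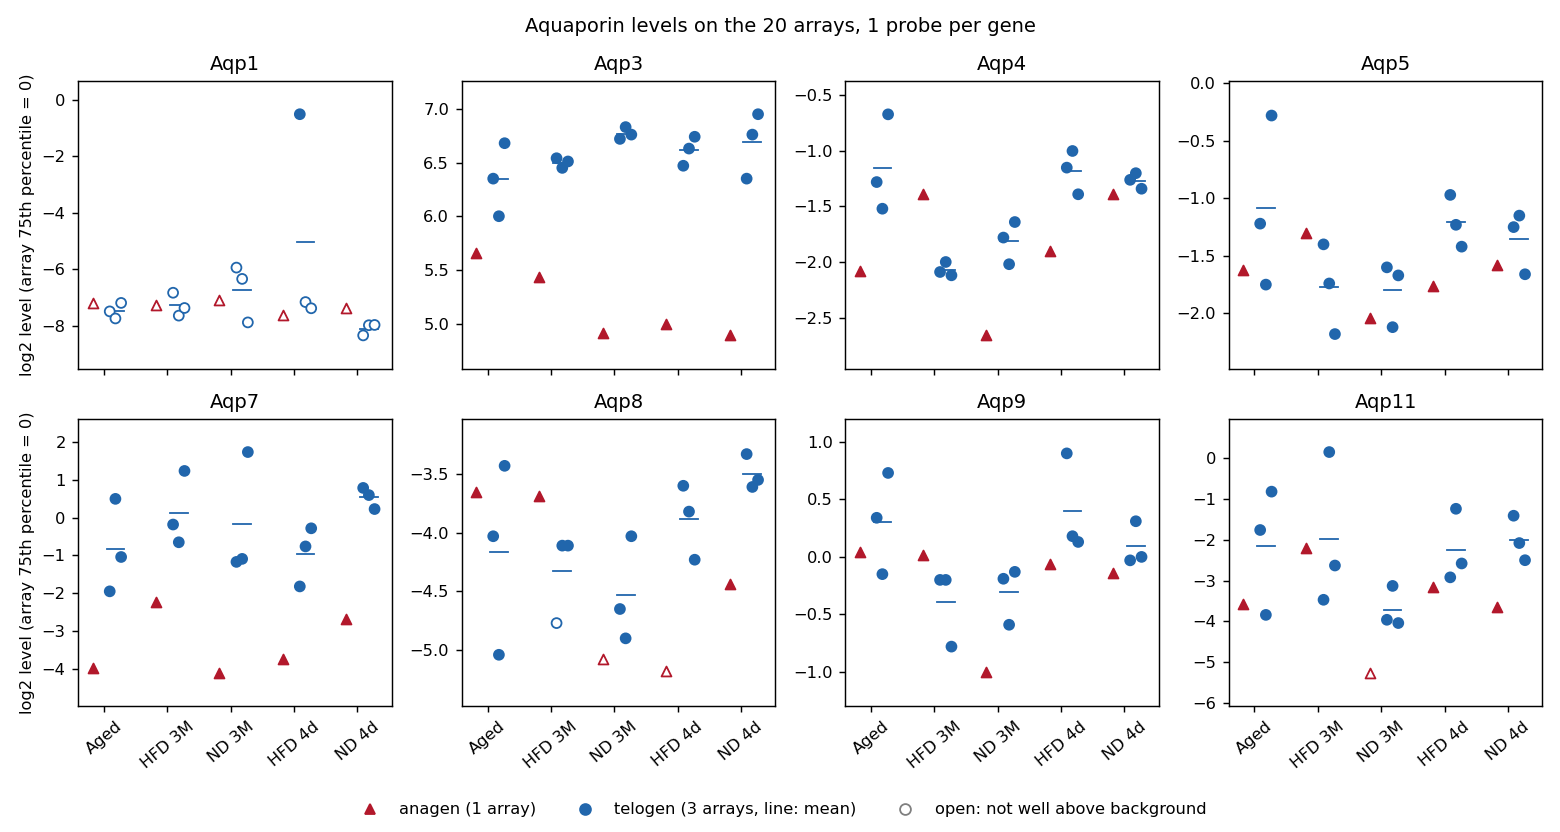
Each panel gives the log2 level of 1 aquaporin on the 20 arrays, relative to the 75th percentile of the array, by condition. Triangles are single anagen arrays, circles the 3 telogen arrays with their mean as a line, and open symbols arrays where the probe was not well above background. For Aqp3 and Aqp7 every triangle lies below every circle, and for Aqp1 only 1 symbol, HFD 4d telogen at -0.51, is filled.

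The telogen groups ask what diet and age did to resting stem cells, and these contrasts are not the one that chose the members, although it used the same telogen arrays. No aquaporin passed the test between high fat and normal diet. At 3 months, limma called 0 of the 7 members and 0% of the 18727 genes at an adjusted p of 0.05, with 0 members and 730 genes at an unadjusted p below 0.05. At 4 days the counts were again 0 of 7 and 0%, with 0 members and 817 genes at the unadjusted threshold.

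Aqp3 averaged 6.50 ± 0.05 (SD, n = 3) in HFD 3M and 6.77 ± 0.06 in ND 3M telogen cells, and the 3 HFD arrays lay below the 3 ND arrays. The limma difference was -0.27 ± 0.25 (SE, 95% interval -0.82 to 0.28, adjusted p 1). After 4 days of diet it was -0.07 ± 0.25 (interval -0.62 to 0.47, adjusted p 1), with overlapping arrays. The fit shares its estimate of the spread over the 5 telogen groups, and the interval leaves room for differences in either direction. The share of all genes that separate fully between groups of 3 arrays is not given. Nothing is therefore read from such an order of arrays, here or below.

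Aqp7, the adipocyte glycerol channel, averaged 0.14 ± 0.98 in HFD 3M cells and -0.17 ± 1.66 in ND 3M cells (SD, n = 3), which gave 0.31 ± 0.83 (SE, adjusted p 1). Leaving out 1 array at a time, the Aqp7 difference lay between -0.25 ± 0.89 (without HFD 3M replicate 3, the array that stood apart) and 1.26 ± 0.73 (without ND 3M replicate 3). After 4 days it averaged -0.95 ± 0.79 in HFD 4d and 0.54 ± 0.28 in ND 4d cells, and the limma difference was -1.49 ± 0.83 (interval -3.29 to 0.31, adjusted p 1). The HFD 4d arrays, at -1.82, -0.76 and -0.28, all lay below the ND 4d arrays, at 0.79, 0.60 and 0.23. The test of the diet effect at 3 months minus that at 4 days gave 1.80 ± 1.17 (adjusted p 1), so a change of the diet effect with duration was not shown.

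Aqp11 averaged -1.98 ± 1.90 in HFD 3M cells and -3.71 ± 0.50 in ND 3M cells, and differed by 1.73 ± 0.91 (SE, interval -0.26 to 3.71, adjusted p 1). Leaving out 1 array at a time, this difference lay between 0.66 ± 0.79 (without HFD 3M replicate 2) and 2.47 ± 0.94 (without HFD 3M replicate 1), and was 2.05 ± 1.04 without HFD 3M replicate 3. Aqp3 differed by -0.28 ± 0.29 without that last array. Of the 3 HFD arrays, replicate 2 stood highest at 0.15, with the others at -3.47 and -2.63. The differences of Aqp4, Aqp5, Aqp8 and Aqp9 at 3 months were -0.26, 0.02, 0.20 and -0.09, and after 4 days 0.09, 0.15, -0.38 and 0.31, each with an adjusted p of 1. Averaged over both durations, the diet differences ran from -0.59 (Aqp7) to 0.74 (Aqp11), with 0 of 7 called and 0% of all genes. The difference between durations also had 0 of 7 members and 0% of genes called, with 701 genes and 0 members at an unadjusted p below 0.05, and the average had 803 genes and 0 members. The median member differed by 0.02 at 3 months and -0.07 after 4 days, against -0.04 and -0.05 for the median gene.

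Between Aged and ND 3M telogen cells, 0 of 7 members were called, while limma called 12 genes, 0.0641% of those tested. At an unadjusted p below 0.05 there were 1 of 7 members and 2232 genes, or 11.9%. Aqp4 averaged -1.16 ± 0.44 (SD, n = 3) in Aged and -1.81 ± 0.19 in ND 3M cells, a difference of 0.65 ± 0.26 (SE, interval 0.09 to 1.22, adjusted p 0.36), and its unadjusted p of 0.0268 was the only one below 0.05 among the members. The Aged arrays, at -1.28, -1.52 and -0.67, lay above the ND 3M arrays, at -1.78, -2.02 and -1.64, and without Aged replicate 3 the difference was 0.41 ± 0.23. Aqp5 differed by 0.71 ± 0.37 (adjusted p 0.47), Aqp9 by 0.61 ± 0.32 (0.473) and Aqp11 by 1.57 ± 0.91 (0.52). The median member differed by 0.61 and the median gene by 0.06.

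Aqp3 averaged 6.34 ± 0.34 in Aged and 6.77 ± 0.06 in ND 3M cells, a difference of -0.43 ± 0.25 (SE, interval -0.97 to 0.12, adjusted p 0.527). Set against ND 4d, at 6.69 ± 0.31, the Aged difference was -0.34 ± 0.25 (adjusted p 0.816). All 3 Aged arrays lay below the ND 3M arrays, and they overlapped ND 4d. Aqp7 differed by -0.66 ± 0.83 from ND 3M and by -1.37 ± 0.83 from ND 4d (adjusted p 0.794 and 0.741).

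Against ND 4d, 0 of 7 members were called in Aged cells, with 0 at an unadjusted p below 0.05. Of all genes, 7 were called, or 0.0374%, and 1470, or 7.85%, were at the unadjusted threshold. Aqp4 differed there by 0.11 ± 0.26, Aqp5 by 0.27 ± 0.37, Aqp9 by 0.21 ± 0.32 and Aqp8 by -0.67 ± 0.40 (SE).

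The normal diet groups differ in age, 5 months in ND 3M and 2 months in ND 4d. This comparison shares its arrays with those of diet and of Aged mice above, so the values are not independent of them. Limma called 0 of 7 members and 3 genes, or 0.016%. At an unadjusted p below 0.05 there were 1 of 7 members and 2219 genes, or 11.8%. Aqp8, which carries water and ammonia, averaged -4.53 ± 0.45 in ND 3M and -3.50 ± 0.14 in ND 4d (SD, n = 3), a difference of -1.03 ± 0.40 (SE, interval -1.90 to -0.16, unadjusted p 0.0242, adjusted p 0.365). Its ND 3M arrays, at -4.65, -4.90 and -4.03, all lay below the ND 4d arrays, at -3.33, -3.61 and -3.55. Aqp4 differed by -0.55 ± 0.26 (adjusted p 0.438) and Aqp11 by -1.71 ± 0.91 (0.487). Of the 7 members, 6 were below 0, with a median of -0.55 against -0.14 for all genes, and Aqp3 was at 0.08 ± 0.25. Among all genes 41.4% were above 0.

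**Figure D3:**
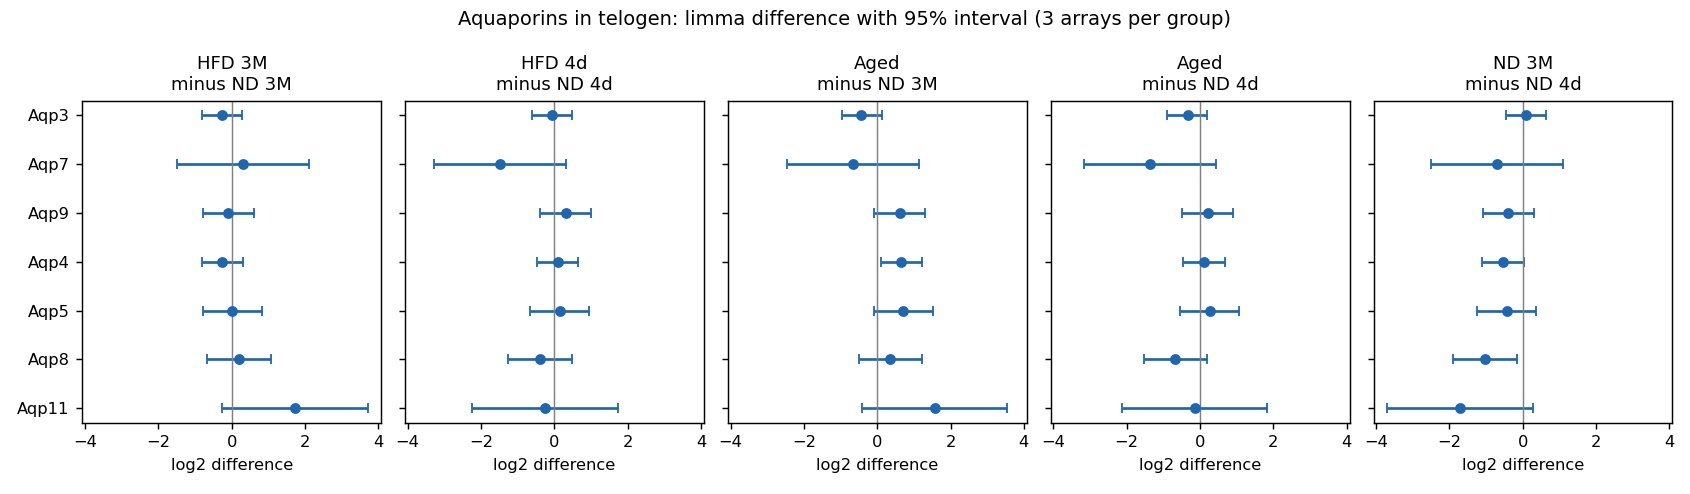
Points are limma's log2 differences between telogen groups (3 arrays each) with the 95% interval, and the horizontal axis runs over the same range in all 5 panels. Only the intervals of Aqp4 (Aged minus ND 3M) and Aqp8 (ND 3M minus ND 4d) leave out 0, and no member passed after adjustment over 18727 genes. Aqp7 and Aqp11 have the widest intervals.

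The slide runs together with duration and age here. Slide 1 held the telogen arrays of both 3-month diets, slide 2 those of both 4-day diets and slide 3 those of Aged mice. Aqp4 averaged -1.94 ± 0.19 on the 6 arrays of slide 1, -1.22 ± 0.14 on the 6 of slide 2 and -1.16 ± 0.44 on the 3 of slide 3 (SD). For Aqp4, Aqp9 and the family gene Aqp2, all 6 arrays of slide 1 lay below all 6 of slide 2, by a mean of 0.72, 0.60 and 0.93, as was the case for 6.35% of all genes, while 0.235% were ordered the opposite way. Aqp5, Aqp8, Aqp11 and Aqp6 also averaged higher on slide 2, by 0.50, 0.74, 0.72 and 0.79, but their arrays overlapped. Aqp3 and Aqp7 did not divide by slide, with slide 2 minus slide 1 at 0.01 and -0.19. Slide, diet duration and age cannot be told apart in these telogen arrays. With slide as a block over all 20 arrays, where its term rests on the single anagen arrays, the Aged minus ND 3M difference of Aqp4 was -0.59 ± 0.73, the opposite sign, and the ND 3M minus ND 4d difference of Aqp8 was 0.04.

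Aquaporins differed in how tightly their replicates agreed. The SD of log2 levels within the telogen groups was 0.22 for Aqp3, 0.24 for Aqp4, 0.34 for Aqp9, 0.43 for Aqp5 and 0.48 for Aqp8, against a median of 0.67 over all genes. It was 1.09 for Aqp7 and 1.21 for Aqp11. Only 2.79% of genes had an SD as low as that of Aqp3, while 76.3% lay below Aqp7. A difference of a given size is therefore better resolved for Aqp3 than for Aqp7.

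Over the 15 telogen arrays the members fell into correlated and uncorrelated pairs. Aqp5 and Aqp9 correlated at 0.90 (Pearson), Aqp4 and Aqp9 at 0.85, Aqp4 and Aqp5 at 0.84, and Aqp4 and Aqp2 at 0.90. These arrays share slides and groups. Aqp4, Aqp9 and Aqp2 are those that divide by slide without overlap, and Aqp5 also averaged higher on slide 2 than on slide 1, by 0.50. The neighbours Aqp3 and Aqp7 correlated at 0.02, and Aqp3 with the other 8 family genes between -0.22 and 0.22. The 2 genes with the widest anagen differences thus did not vary together among telogen arrays.

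**Figure D4:**
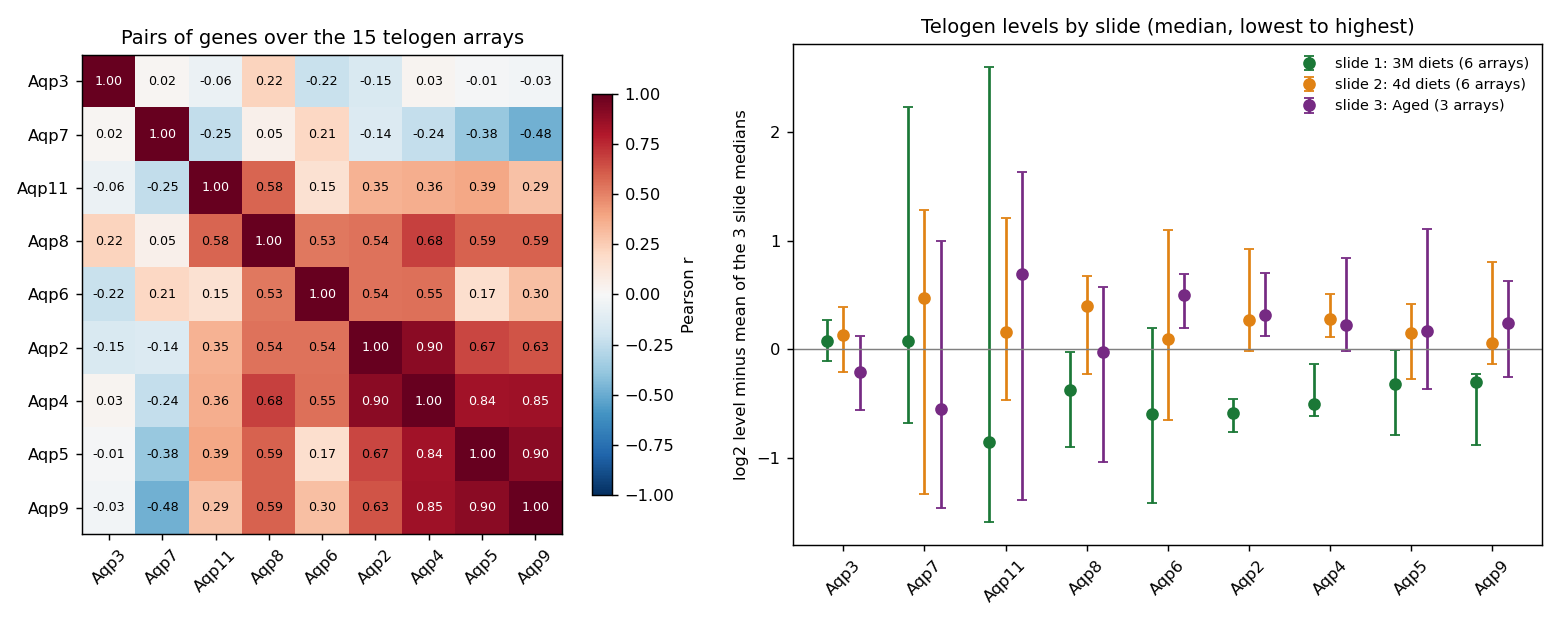
The left panel gives Pearson correlations of log2 levels between pairs of aquaporins over the 15 telogen arrays. The right panel gives the median (point) and the lowest and highest value (bar) on the telogen arrays of each slide, in log2 minus the mean of the 3 slide medians. Aqp4, Aqp5 and Aqp9 form a correlated block (0.84 to 0.90), and slide 1 lies below slide 2 for Aqp2, Aqp4 and Aqp9 with no overlap.

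Genes whose telogen pattern was closest to a member were taken as the 3 highest correlations among 12758 genes (12759 for Aqp8) that were well above background on all 15 telogen arrays, and are a description. For Aqp3 they were Adamtsl4 (0.93), Elp3 (0.89) and Emd (0.88). For Aqp7 they were Surf4 (0.83), Akt1s1 (0.82) and Hnrnpa1 (0.78). Adamtsl4, a secreted protein of microfibrils, was also lower in anagen, by a mean of -2.36, whereas Elp3 and Emd differed by -0.19 and -0.32. The 3 closest to Aqp7 had anagen differences of 0.07, -0.12 and 0.49, so those genes did not share the anagen gap of Aqp7. The closest to Aqp4 were Rbbp8nl, Muc4 and Pcp4l1, to Aqp5 Krt2, Krtap4-6 and Olfr310, to Aqp9 Sox14, Mag and Neurog3, to Aqp8 Fam187a, Zfp523 and Ttc41, and to Aqp11 Car1, Hmga2-ps1 and Pacsin1, at 0.86 to 0.96.

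Genes that make, store or use glycerol were set beside the aquaglyceroporins. Of 16 such genes, 0 were lower and 4 were higher in anagen in all 5 conditions, shares of 9.67% and 9.25% over all genes, and their median difference was -0.03 against -0.16 for all genes. Glycerol kinase (Gk), which phosphorylates glycerol on entry, had the widest difference, 2.92 ± 0.81 (SD, 5 conditions). Its anagen arrays lay between -4.06 and 0.13, against -7.40 to -1.37 in telogen, where 10 of 15 arrays were well above background. The others were Pparg, a fat cell regulator, at 1.03 ± 0.69, Abhd5, a co-activator of lipolysis, at 0.85 ± 0.38, and Gpam, which starts glycerolipid synthesis, at 0.47 ± 0.51. Their phases overlapped. The anagen arrays of Abhd5, at 0.94 to 1.14, and of Gpam, at 1.09 to 1.91, lay inside the telogen ranges of -1.41 to 1.53 and 0.03 to 1.98. The smallest difference of a condition was 0.04 for Gpam (ND 3M) and for Pparg (HFD 4d). In HFD 3M the anagen array of Gk, at -4.06, lay below the only telogen array that was well above background, at -2.78, so its count of 5 conditions rests there on arrays at background.

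In telogen, limma called 0 of the 16 glycerol genes in all 7 comparisons. The smallest unadjusted p after 4 days of diet was that of Mgll, the lipase that releases glycerol from monoglycerides, with 0.51 ± 0.84 in HFD 4d and -2.22 ± 1.43 in ND 4d (SD, n = 3), a difference of 2.74 ± 0.76 (SE, adjusted p 0.814). Against the same ND 4d arrays, Mgll was also higher in ND 3M, by 2.07 ± 0.76, and in Aged cells, by 1.86 ± 0.76 (SE, adjusted p 0.357 and 0.566). These differences therefore share a low ND 4d group. Gpd2, a mitochondrial glycerol phosphate dehydrogenase, differed by 2.55 ± 1.05 after 4 days of diet and by 1.61 ± 1.05 at 3 months (adjusted p 1 for both). Ppara, a regulator of fat oxidation, differed by 1.99 ± 0.92 at 3 months (adjusted p 1). Between Aged and ND 3M cells, Lpin1, a phosphatidate phosphatase, differed by 1.44 ± 0.45 and Gpam by -1.13 ± 0.43 (adjusted p 0.299 and 0.346).

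A list of 15 genes of the osmotic and cell volume response, 14 of them tested, held 3 that were lower and 1 that was higher in anagen in all 5 conditions, with a median difference of 0.08. Over all genes 9.67% were lower and 9.25% higher in this way, the median was -0.16, and 0.716% were lower with no overlap. Nfat5, the transcription factor of the hypertonic response, had anagen arrays at -1.58 to 0.66 (median 0.05) and telogen arrays at 0.77 to 1.90 (median 1.52), with no overlap and a mean difference of -1.70 ± 1.06 (SD). The taurine transporter Slc6a6 read 5.17 to 5.37 in anagen and 5.53 to 6.4 in telogen, also without overlap, a mean of -0.67 ± 0.22. Akr1b3, the aldose reductase that makes sorbitol, differed by 0.61 ± 0.25. Among telogen groups, 0 of the 14 were called in all 7 comparisons. The smallest unadjusted p was 0.0289, for the inositol transporter Slc5a3 between Aged and ND 3M cells (2.16 ± 0.87, SE, adjusted p 0.365, 2 of 3 ND 3M arrays well above background).

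The family genes outside the chosen members were Aqp2, Aqp6, Aqp12 and Mip. Aqp2 and Aqp6 were well above background on 20 of 20 arrays by the probe used, Mip, the lens channel, on 6, and Aqp12 on 3. Aqp2 averaged -1.18 ± 0.30 in Aged and -2.06 ± 0.06 in ND 3M telogen cells (SD, n = 3), a difference of 0.87 ± 0.29 (SE, adjusted p 0.305), and -0.85 ± 0.29 between ND 3M and ND 4d (adjusted p 0.348). Aqp6 differed by 0.93 ± 0.44 and -1.04 ± 0.44 in the same comparisons (adjusted p 0.432 and 0.393). Neither was called, and Aqp2 is among the genes that divide by slide.

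Several members had a further probe, and these did not always follow the one used. For Aqp9, the probe used is annotated to a predicted transcript and its telogen arrays lay between -0.78 and 0.90. The other probe, annotated to a curated transcript, ran from -4.20 to 1.96 in telogen, correlated with the first at 0.33 and differed by -0.10 in anagen. The further probes of Aqp4 and Aqp5 correlated with those used at 0.54 and 0.58 and differed by -0.21 and -0.68 in anagen. The further Aqp5 probe was well above background on 1 of 5 anagen and 12 of 15 telogen arrays.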

How the data were processed

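The authors purified total RNA from hair follicle stem cells, labelled it as Cy3 cDNA and hybridised 20 samples to 1-colour Agilent mouse arrays, per the labels' protocols. Per the file headers, the deposited scanner files hold processed spot intensities that were background-subtracted and detrended (Agilent Feature Extraction 10.7.1.1, per the submitters' processing notes). The deposited series table holds a linear signal per probe, with column medians of 0.088 to 0.168. Its median absolute log2 difference from the scanner intensity divided by the array's 75th percentile was 0.00532 to 0.0103, so genes were not centred. No genome build is given in the sources used here.

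After 62 to 159 outlier spots per array were set to missing (0 were saturated), spots of a probe were averaged, and log2 intensities were scaled to the 75th percentile of their array. Of 56605 probes, 32994 matched 1 RefSeq symbol through their accession and 23611 matched none. Tests used probes well above background on all 3 arrays of any telogen group or on at least 3 of 5 anagen arrays, and the brightest tested probe stood for its gene, giving 18727 genes. The 15 telogen arrays entered 1 limma fit (limma 3.58.1, R 4.3.3) with group as factor. Its two-sided p-values were adjusted by Benjamini-Hochberg over all 18727 genes, called at 0.05, and the procedure was tested on simulated data. The number of arrays limits precision: the median half-width of a 95% interval was 1.15 for a comparison of groups.

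The members and lists were chosen with earlier results of these data known. The genes named are all members, Mip, Aqp2, Aqp6 and Aqp12, from the glycerol and osmotic lists those called or otherwise the smallest p of a comparison, and the 3 highest correlations per member. List genes of 1 sign in all 5 anagen differences were named after their values were seen, and 1 of them is not reported here. Alternatives were normexp (offset 50, on the median signal), quantile and median scaling, a 75th percentile over probes detected on all arrays, dim-probe filters, the mean over probes, the series table, variance models, array weights, a replicate block, a slide block and leaving out arrays.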

Additional observations from a re-analysis of the deposited data

Results flagged for a closer look

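Aqp1, the water channel of endothelium and red cells, did not pass the filter, and 1 array stood out in its signal. Its level was -0.51 on HFD 4d telogen replicate 1, the only one of 20 arrays where its probe was well above background. On the other telogen arrays it lay between -8.34 and -5.94, and on the anagen arrays between -7.63 and -7.08. The other HFD 4d telogen arrays read -7.16 and -7.38, so the signal is 1 sample's and was in no comparison. On that array the endothelial markers summed to 0.57, within their telogen range of 0.509 to 1.68. Of these 8 markers, 3 were well above background there, and Cdh5 and Kdr on 0 of the 20 arrays, although Kdr read -5.32 there, its highest value. The red cell markers summed to 1.68, within 0.56 to 6.56. The sebocyte markers summed to 34.4 and the melanocyte markers to 10.9, each the highest of the 20 arrays, and the adipocyte markers to 5.56, within their telogen range of 1.45 to 8.14. Among the adipocyte markers, Fabp4 read 0.42 there, the highest of its 20 arrays. On the other telogen arrays Fabp4 lay between -7.83 and -4.32, and in anagen between -6.08 and -0.02. Cidec, another adipocyte marker, read -6.14 there, close to its lowest telogen value of -6.16. The part of these cells in the Aqp1 signal was not tested.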

How the results depend on the processing

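Under every alternative run, limma called 0 of the members in each of the 7 telogen comparisons, with 19 or 25 settings per comparison. Over these settings the number of all genes called lay between 0 and 1 for HFD 3M, 0 and 1 for HFD 4d, 0 and 2 for both durations, 0 and 1 for the diet effect by duration, 0 and 24 for Aged against ND 3M (12 as reported), 0 and 12 for Aged against ND 4d (7) and 0 and 7 for ND 3M against ND 4d (3). Of 1001 recomputed telogen differences of single members, 58 changed sign, none of them called. Replicate numbers did not pair the samples. Arrays of different groups with the same number correlated at a median of 0.01 (-0.14 to 0.06, 30 pairs), and others at 0 (-0.1 to 0.11, 60 pairs). With the replicate block, 0 members were called in any comparison. Of 98 recomputed anagen differences of members, 0 changed sign. They ranged from -3.40 to -2.61 for Aqp7, -1.58 to -1.16 for Aqp3, -1.39 to -0.89 for Aqp11, -0.65 to -0.18 for Aqp4, -0.57 to -0.03 for Aqp8, -0.41 to -0.04 for Aqp9 and -0.45 to 0 for Aqp5. Relative to the median gene of the same setting, Aqp5 was above 0 in 2 settings and Aqp8 in 1.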
